A study of Homo sapiens with 8 samples.

Results

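AJUBA, LIMD1 and WTIP are the 3 members of the AJUBA family of LIM-domain proteins, and they were examined here together with the Hippo pathway kinases LATS1 and LATS2, the coactivator YAP1 and 4 target genes of YAP1, CCN1, CCN2, ANKRD1 and AMOTL2. These 10 genes were selected on earlier results of the same arrays, led by the higher AJUBA values of cells given EerI or CBU-028. The values of AJUBA are therefore given as a description with no test, and counts over the other 9 genes are descriptions too. The 10 genes had 26 of the 54675 probe sets on the array, 4 for AJUBA, 5 for LIMD1, 4 each for LATS1 and LATS2, 3 for YAP1, 2 for CCN1 and 1 each for WTIP, CCN2, ANKRD1 and AMOTL2. Each gene is given by the brightest of its probe sets (highest mean log2 signal across the 8 arrays), and 19775 genes were measured in this way. In the annotation AJUBA lies on chromosome 14, LIMD1 and AMOTL2 on chromosome 3, WTIP on chromosome 19, LATS1 and CCN2 on chromosome 6, LATS2 on chromosome 13, YAP1 on chromosome 11, CCN1 on chromosome 1 and ANKRD1 on chromosome 10.

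RNA came from 293T cells, which derive from human embryonic kidney and express the large T antigen of SV40. The cells were exposed for 10 h to 10 µM EerI (Eeyarestatin I), 10 µM CBU-028 or 10 µM 5-NA (5-nitrofuryl-acrolein), and control cells were measured beside them, with 2 arrays in each of the 4 groups. EerI is an inhibitor of ER-associated degradation, the disposal of misfolded proteins of the endoplasmic reticulum. 5-NA corresponds to its nitrofuran-containing part without the aromatic domain. CBU-028 carries the same nitrofuran-containing part, joined to a different benzene-containing group. The sources used here do not say whether control cells received solvent, and the number in the titles of the 5-NA arrays is assigned to CBU-029 elsewhere in the study, so that each 5-NA value rests on the remaining labels of these arrays.

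The arrays had median log2 signals between 6.89 and 6.93, and duplicate arrays correlated over all probe sets with r between 0.995 and 0.998. The residual SD ranged from 0.163 for CBU-028 to 0.0921 for control on the log2 scale. The 28S ribosomal RNA probe set of the array was higher than in control by 1.22 with 5-NA, by 0.36 with CBU-028 and by 0.19 with EerI on the log2 scale, and the difference between 3′ and 5′ probe sets of ACTB was 0.363 on 5-NA replicate 2 and at most 0.196 on the other 7 arrays. The part of these differences in the results below was not tested. Genes known from this line had high mean log2 signals, 13.71 for VIM, 13.41 for NEFL and 12.27 for KRT18, and PTPRC and ALB, markers of leukocytes and hepatocytes, had 4.63 and 5.11. PAX2, also known from this line, had only 6.70. The files carry no detection calls, and levels of different probe sets are not on a common scale.

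The Hippo pathway limits growth through a chain of kinases that ends in LATS1 and LATS2, which phosphorylate YAP1 and its relative TAZ and keep them out of the nucleus. Unphosphorylated YAP1 binds TEAD transcription factors on DNA and raises genes such as CCN1, CCN2, ANKRD1 and AMOTL2. AJUBA family proteins sit at cell junctions and in the cytoplasm, where they bind LATS kinases and can hold their activity down, and they also serve as scaffolds and transcriptional corepressors.

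The bases just before the transcription start are shown for AJUBA, which was highest with EerI, for CCN2 and AMOTL2, which were called higher with CBU-028 and 5-NA but not with EerI, and for ANKRD1, a target gene that passed no test. The RefSeq table of promoters (GRCh38.p14) held 8 of the 10 genes, all but LIMD1 and CCN1. Only the first start listed for each gene was used, and any other start of a gene was not searched. The windows are chr14:22982552-22982801 for AJUBA, chr6:131951373-131951622 for CCN2, chr3:134375418-134375667 for AMOTL2 and chr10:90921088-90921337 for ANKRD1, all on the minus strand and written 5′ to 3′ up to the last base before the start. Capitals mark matches to the motifs searched.
AJUBA: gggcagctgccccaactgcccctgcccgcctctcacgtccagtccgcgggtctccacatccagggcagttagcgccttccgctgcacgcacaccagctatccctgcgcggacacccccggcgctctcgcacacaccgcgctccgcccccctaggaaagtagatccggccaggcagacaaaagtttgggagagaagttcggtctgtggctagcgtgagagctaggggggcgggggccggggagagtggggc
CCN2: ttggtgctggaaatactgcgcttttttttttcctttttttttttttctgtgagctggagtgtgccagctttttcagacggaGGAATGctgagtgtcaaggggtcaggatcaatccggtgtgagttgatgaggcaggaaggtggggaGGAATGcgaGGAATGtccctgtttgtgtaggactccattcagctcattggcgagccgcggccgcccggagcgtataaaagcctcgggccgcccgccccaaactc
AMOTL2: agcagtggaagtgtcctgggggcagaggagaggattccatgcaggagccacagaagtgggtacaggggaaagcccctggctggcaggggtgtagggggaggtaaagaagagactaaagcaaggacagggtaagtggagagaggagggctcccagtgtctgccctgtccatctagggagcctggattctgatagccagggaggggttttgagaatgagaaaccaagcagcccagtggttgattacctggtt
ANKRD1: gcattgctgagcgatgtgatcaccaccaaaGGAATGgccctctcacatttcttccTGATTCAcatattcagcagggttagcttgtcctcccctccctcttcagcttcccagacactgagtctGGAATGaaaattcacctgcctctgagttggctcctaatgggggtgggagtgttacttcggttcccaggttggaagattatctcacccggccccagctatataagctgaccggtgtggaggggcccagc

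The 5 motifs were searched on both strands in windows that ran from 250 bases before to 50 bases after the start, and no matches overlapped. GGAATG, the core bound by TEAD factors, occurred 3 times in the CCN2 window, 169, 104 and 95 bases before the start, and 2 times in the ANKRD1 window, 220 and 128 bases before it. It occurred 3 times in the WTIP window, and once each in those of LATS2 and YAP1. The share of all 34796 windows that held GGAATG was 14%. TGANTCA, a loose form of the AP-1 motif that allows any middle base, was found in ANKRD1 alone of these genes. The match, 195 bases before the start, reads TGATTCA, and 7.73% of all windows held the loose form. TGATGNAA, the composite element of ATF4 and CEBP factors, was found in LATS1 (3.63% of all windows), TGACNNNGC, the core of the antioxidant response element, in LATS2 (13.3% of all windows), and TGACGTCA, the cAMP response element, in none of the 8 genes (1.84% of all windows). The windows of AJUBA and AMOTL2 held none of the 5 motifs. The LATS1 window, chr6:149716376-149716675 on the minus strand, lies inside the annotated gene (149658153-149718101). Its start is therefore not the outermost start of LATS1. A match is a run of letters and no measured binding site.

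AJUBA was the member with the widest range, and its level followed the order EerI, CBU-028, 5-NA, control. Probe set 225806_at, which represents the gene, had log2 signals of 9.90 and 9.89 with EerI, 9.40 and 9.28 with CBU-028, 8.42 and 8.32 with 5-NA, and 8.37 and 8.22 in control cells. Both EerI arrays lay above both CBU-028 arrays, both CBU-028 arrays lay above every 5-NA and control array, and the 5-NA and control arrays overlapped. The group means ± SD (n = 2 each) were 9.89 ± 0.0023, 9.34 ± 0.0850 and 8.37 ± 0.0709 with EerI, CBU-028 and 5-NA, and 8.30 ± 0.106 in control. AJUBA was thus 3.02-fold higher than control with EerI (log2 fold change 1.60), 2.06-fold higher with CBU-028 (1.04) and 1.05-fold with 5-NA (0.07). Directly compared, the level with 5-NA was below that with EerI by a log2 difference of -1.52 and below that with CBU-028 by -0.97, and the level with CBU-028 was below that with EerI by -0.55. In bulk RNA, a change in a fraction of the cells and a smaller change in all of them cannot be told apart.

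The other AJUBA probe sets did not all show this order. Probe set 1553764_a_at had 9.44 and 9.50 with EerI, 8.997 and 8.82 with CBU-028, 7.97 and 7.73 with 5-NA, and 7.73 and 7.83 in control, and gave log2 fold changes of 1.69, 1.13 and 0.07 for EerI, CBU-028 and 5-NA. Its arrays fell in the same order of groups as those of 225806_at. Probe set 225807_at, near the low end of the signal range, had 5.46 and 5.77 with EerI, 5.08 and 5.14 with CBU-028, 4.87 and 5.08 with 5-NA, and 4.97 and 5.00 in control. Both EerI arrays lay above both CBU-028 arrays, and both CBU-028 arrays above every 5-NA and control array, as in 225806_at. The lowest CBU-028 array, at 5.083, was barely above the highest 5-NA array, at 5.082. The 5-NA and control arrays overlapped, and the log2 fold changes were 0.63, 0.13 and -0.01. Probe set 243446_at had 5.31 and 5.14 with EerI, 4.63 and 4.93 with CBU-028, 5.02 and 4.91 with 5-NA, and 5.15 and 4.95 in control. The EerI and control arrays of this probe set overlapped, and with CBU-028 its log2 fold change was -0.27. The order of all group means was thus shared by 225806_at and 1553764_a_at, with signals between 7.73 and 9.90. Of the dimmer pair, with signals between 4.63 and 5.77, 225807_at differed only in that the 5-NA mean lay below that of control. Probe set 243446_at did not place CBU-028 above control.

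**Figure D1:**
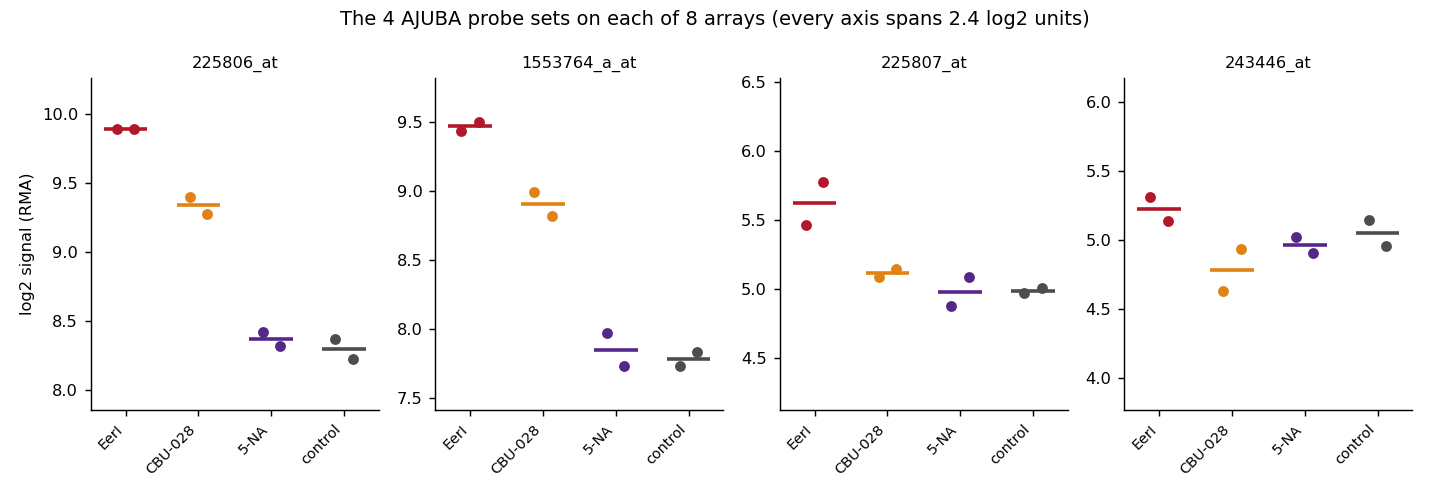
Log2 signal (RMA) of the 4 AJUBA probe sets on each of the 8 arrays; points are arrays, lines are group means (n = 2), and all vertical axes have the same length in log2 units but start at their own level. In 225806_at the EerI arrays sit at 9.90 and 9.89 and the control arrays at 8.37 and 8.22, whereas the groups of 243446_at lie between 4.63 and 5.31.

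The genes whose pattern over the 8 arrays was most like that of AJUBA were taken from 12393 genes with a mean log2 signal of at least 7, as a description without a test. They were CIRBP, a cold-inducible RNA-binding protein (Pearson r = 0.983), PLPP5, a lipid phosphatase (0.983), ZNF711, a zinc finger protein (0.977), N4BP2L2 (0.976) and XPOT, the export receptor of tRNAs (0.972). Each had its highest log2 fold change with EerI, between 0.30 for N4BP2L2 and 0.63 for PLPP5, all below the 1.60 of AJUBA. With CBU-028 these 5 genes had log2 fold changes between 0.18 and 0.49, and with 5-NA between -0.08 and 0.07. They were chosen for their likeness to AJUBA on these arrays, so this order of the compounds follows from the choice. The 8 arrays share 4 conditions, so that few independent points lie behind these correlations.

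The other AJUBA family genes did not share this order. LIMD1, which like AJUBA binds LATS kinases, had log2 signals of 9.46 and 9.52 with EerI, 9.62 and 9.71 with CBU-028, 9.83 and 10.03 with 5-NA, and 9.63 and 9.66 in control (probe set 222762_x_at). In this probe set both EerI arrays lay below the control arrays and both 5-NA arrays above them. The other LIMD1 probe sets gave log2 fold changes with EerI of 0.03, -0.05, -0.02 and 0.09, none called. WTIP, named for its binding to the WT1 protein, had 7.93 and 7.99 with EerI, 8.24 and 8.19 with CBU-028, 8.34 and 8.33 with 5-NA, and 8.12 and 8.11 in control. Its order of groups was 5-NA, CBU-028, control, EerI, with no overlap between neighbours.

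These differences of LIMD1 and WTIP were small. Against control, limma gave log2 fold changes for LIMD1 of -0.15 with EerI, 0.02 with CBU-028 and 0.28 with 5-NA, and for WTIP of -0.15, 0.10 and 0.22, and no adjusted p was under 0.05 (lowest for LIMD1 0.0698, for WTIP 0.0878, both with 5-NA). The methods' analysis of variance called WTIP with 5-NA against control (adjusted p = 0.0325). Directly against EerI, 5-NA was higher for both genes, with log2 differences of 0.44 for LIMD1 (1.36-fold, SE 0.0912, limma adjusted p = 0.0133) and 0.37 for WTIP (1.30-fold, SE 0.0760, limma adjusted p = 0.0119). The call of LIMD1 was lost without EerI replicate 1, EerI replicate 2 or 5-NA replicate 2 (adjusted p up to 0.106), and that of WTIP without either EerI or either 5-NA array (up to 0.108). The analysis of variance also lost that of LIMD1 (adjusted p = 0.0636). The other 4 probe sets of LIMD1 gave 5-NA fold changes against control between 0.03 and 0.26 on the log2 scale, none called. For 5-NA against EerI these 4 gave log2 differences of 0.19, 0.09, 0.27 and -0.02. None of these differences was called (limma adjusted p of 0.145, 0.679, 0.315 and 0.909 in that order). The LIMD1 call against EerI thus rests on the representative probe set alone.

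**Figure D2:**
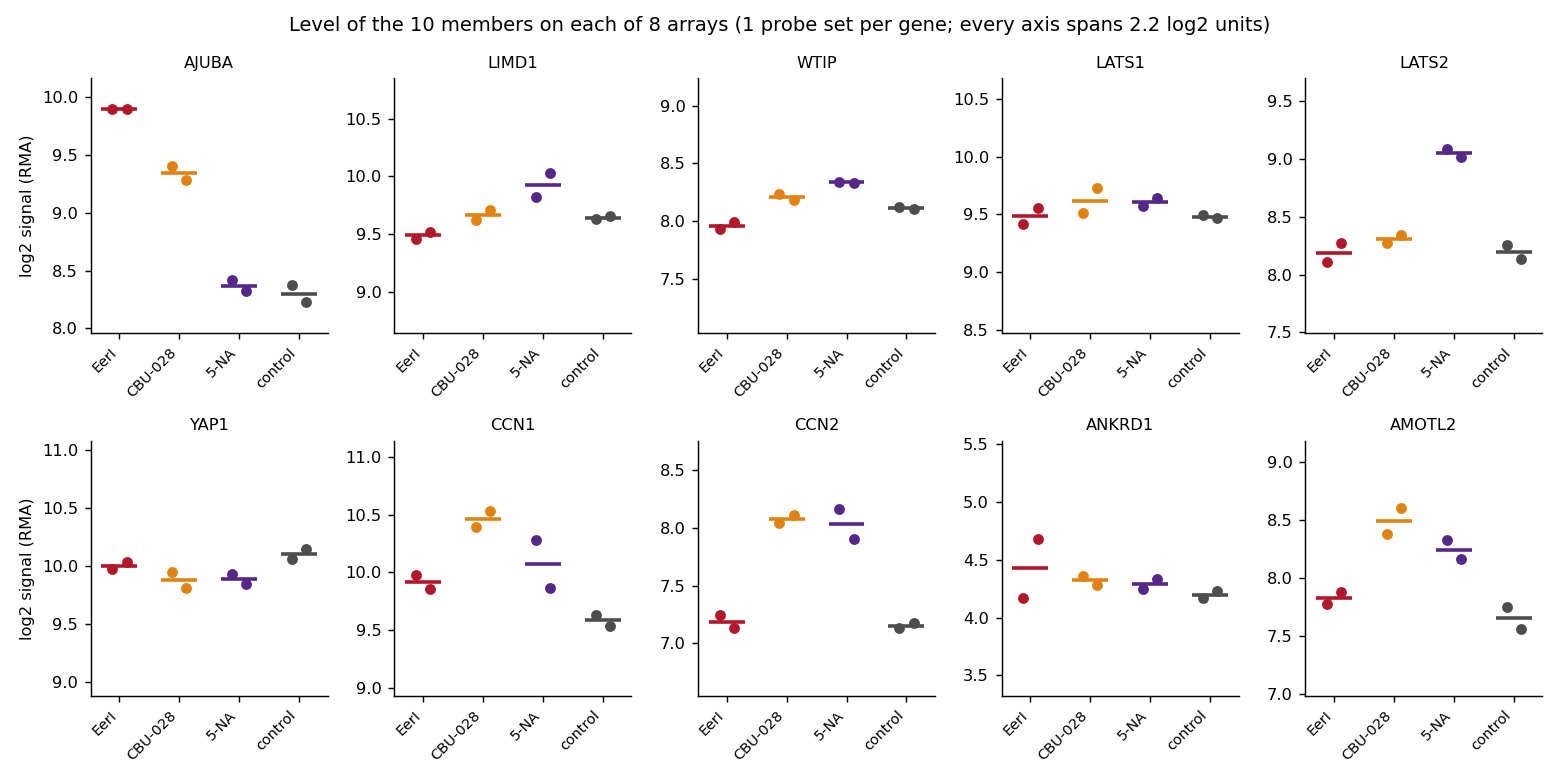
Log2 signal (RMA) of the 10 genes on each of the 8 arrays, with 1 probe set per gene; points are arrays, lines are group means (n = 2), and all vertical axes have the same length in log2 units but start at their own level. AJUBA stands highest with EerI at 9.90 and 9.89, LATS2 with 5-NA at 9.08 and 9.01, and CCN2 with CBU-028 and 5-NA between 7.90 and 8.16.

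Of LATS1, LATS2 and YAP1, LATS2 alone was called by the probe set that represents it, and it was called with 5-NA. Its representative probe set, 227013_at, had log2 signals of 8.11 and 8.27 with EerI, 8.28 and 8.35 with CBU-028, 9.08 and 9.01 with 5-NA, and 8.25 and 8.13 in control. The 5-NA arrays stood apart from the other 6, and the EerI and control arrays overlapped. LATS2 rose 1.80-fold with 5-NA against control (log2 fold change 0.85, SE 0.0905, limma adjusted p = 0.000660), and was 1.81-fold higher with 5-NA than with EerI (0.86, adjusted p = 0.000759) and 1.67-fold higher than with CBU-028 (0.74, adjusted p = 0.00206). All 3 calls were kept with each of the 8 arrays left out, with adjusted p up to 0.0115, 0.0135 and 0.0221 in that order. With EerI and CBU-028 the log2 fold changes against control were 0.00 (95% interval -0.21 to 0.20) and 0.12 (-0.09 to 0.32). LATS2 is also known as a gene that YAP1 and TEAD factors raise.

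The other LATS2 probe sets gave smaller values with 5-NA. Probe set 223380_s_at had 7.34 and 6.99 with 5-NA against 6.92 and 6.61 in control (log2 fold change 0.40, limma adjusted p = 0.0767). Probe sets 223379_s_at and 230348_at gave 0.09 each with 5-NA against control, and neither was called. The height of the difference thus depended on the probe set.

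LATS1 was not called by its representative probe set, 227772_at. It had log2 signals of 9.42 and 9.55 with EerI, 9.51 and 9.73 with CBU-028, 9.57 and 9.64 with 5-NA, and 9.49 and 9.47 in control, with log2 fold changes of 0.01, 0.14 and 0.12, none of them called. A dimmer LATS1 probe set, 1570425_s_at, had 7.002 and 6.76 with CBU-028 against 6.11 and 6.03 in control (log2 fold change 0.82, limma adjusted p = 0.0137), and 6.35 and 6.44 with EerI. The remaining pair of LATS1 probe sets gave log2 fold changes with CBU-028 of 0.12 and 0.20, not called.

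YAP1, the coactivator that LATS kinases phosphorylate, gave opposite signs in its probe sets. The representative 224894_at had log2 signals of 9.97 and 10.03 with EerI, 9.95 and 9.81 with CBU-028, 9.93 and 9.84 with 5-NA, and 10.06 and 10.15 in control. All 6 arrays of treated cells lay below both control arrays, by log2 fold changes of -0.10, -0.22 and -0.22 with limma adjusted p of 0.816, 0.155 and 0.138 for EerI, CBU-028 and 5-NA. Probe set 224895_at, of similar signal, had log2 fold changes of -0.07, -0.04 and -0.17, not called. Probe set 213342_at instead had 8.06 and 8.08 with EerI, 8.78 and 8.66 with CBU-028, 8.85 and 8.53 with 5-NA, and 7.97 and 7.99 in control. By this probe set YAP1 RNA was higher with CBU-028 (log2 fold change 0.74, limma adjusted p = 0.00354) and with 5-NA (0.71, adjusted p = 0.00302), while EerI gave 0.09. Which transcripts each probe set reads was not analysed here.

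**Figure D3:**
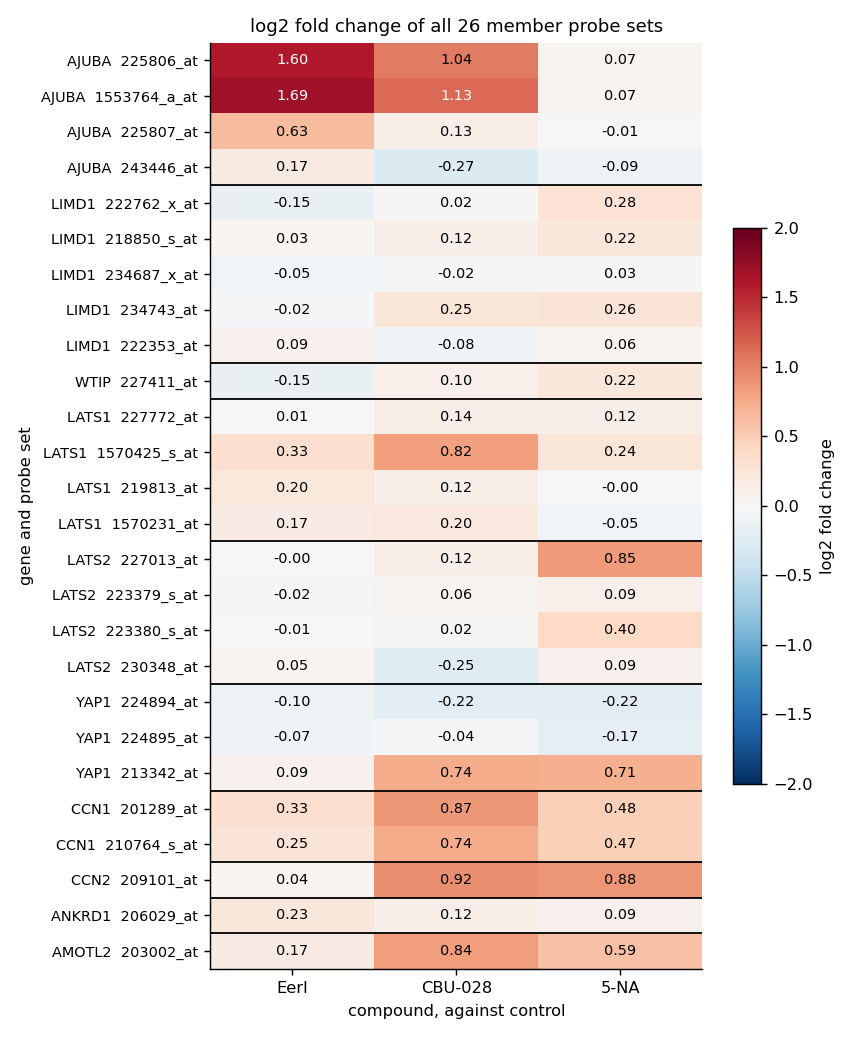
Log2 fold change of all 26 probe sets of the 10 genes, for EerI, CBU-028 and 5-NA over control (n = 2 arrays each); red is higher and blue lower than control, and lines separate genes. The AJUBA row 225806_at reads 1.60, 1.04 and 0.07, and the YAP1 rows 224894_at and 213342_at read -0.22 and 0.71 with 5-NA.

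Of the target genes, CCN1, CCN2 and AMOTL2 rose with CBU-028 and with 5-NA, and none of the 4 was called with EerI. Over all genes 0.769% were called in either direction with EerI, 12.6% with CBU-028 and 18.8% with 5-NA. The lack of calls with EerI therefore does not set these genes apart. CCN2, a secreted matricellular protein also called CTGF and the gene with 3 GGAATG matches in the window shown above, had log2 signals of 7.25 and 7.13 with EerI, 8.04 and 8.11 with CBU-028, 8.16 and 7.90 with 5-NA, and 7.13 and 7.17 in control. The CBU-028 and 5-NA arrays overlapped one another and lay apart from the EerI and control arrays, which overlapped too. CCN2 rose 1.90-fold with CBU-028 (log2 fold change 0.92, SE 0.102, limma adjusted p = 0.00106) and 1.84-fold with 5-NA (0.88, SE 0.102, adjusted p = 0.000953). With EerI its log2 fold change was 0.04 (95% interval -0.19 to 0.27). Both calls were kept with each array left out (adjusted p up to 0.0159 with CBU-028 and 0.0138 with 5-NA).

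AMOTL2, an angiomotin family protein that binds YAP1 at cell junctions, had log2 signals of 7.78 and 7.88 with EerI, 8.38 and 8.61 with CBU-028, 8.33 and 8.16 with 5-NA, and 7.76 and 7.56 in control. The groups did not overlap and fell in the order CBU-028, 5-NA, EerI, control. AMOTL2 rose 1.79-fold with CBU-028 (log2 fold change 0.84, SE 0.110, limma adjusted p = 0.00240) and 1.50-fold with 5-NA (0.59, SE 0.110, adjusted p = 0.00789), and with EerI its log2 fold change was 0.17 (95% interval -0.08 to 0.42). The call with CBU-028 was kept with each array left out (adjusted p up to 0.0308), and that with 5-NA was lost without control replicate 2 or 5-NA replicate 1 (up to 0.0782). The analysis of variance named in the methods lost both calls (adjusted p = 0.0546 with CBU-028 and 0.0768 with 5-NA).

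CCN1, a secreted matricellular protein also called CYR61, had log2 signals of 9.98 and 9.85 with EerI, 10.39 and 10.53 with CBU-028, 10.28 and 9.87 with 5-NA, and 9.64 and 9.54 in control (probe set 201289_at). All 6 arrays of treated cells lay above both control arrays, and the 5-NA arrays overlapped those of EerI. CCN1 rose 1.83-fold with CBU-028 (log2 fold change 0.87, SE 0.130, limma adjusted p = 0.00416) and 1.40-fold with 5-NA (0.48, SE 0.130, adjusted p = 0.0362). With EerI the log2 fold change was 0.33 (95% interval 0.03 to 0.62, adjusted p = 0.439). Its other probe set, 210764_s_at, gave 0.25, 0.74 and 0.47 for EerI, CBU-028 and 5-NA, with adjusted p of 0.552, 0.00554 and 0.0280. The call with CBU-028 was kept with each array left out (adjusted p up to 0.0440), and that with 5-NA was lost without either EerI array, either control array or 5-NA replicate 1 (up to 0.189). The analysis of variance lost both calls (adjusted p = 0.0810 with CBU-028 and 0.182 with 5-NA).

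ANKRD1, an ankyrin repeat protein of muscle sarcomeres and nuclei, had log2 signals of 4.17 and 4.68 with EerI, 4.36 and 4.28 with CBU-028, 4.24 and 4.34 with 5-NA, and 4.17 and 4.23 in control. These signals lie at the low end of the arrays, and the EerI duplicates spanned the values of all other arrays but 1. The log2 fold changes were 0.23 (95% interval -0.10 to 0.55), 0.12 (-0.20 to 0.45) and 0.09 (-0.24 to 0.42) with EerI, CBU-028 and 5-NA, none called by limma. The window of ANKRD1 shown above holds GGAATG as that of CCN2 does, and that of AMOTL2 does not.

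**Figure D4:**
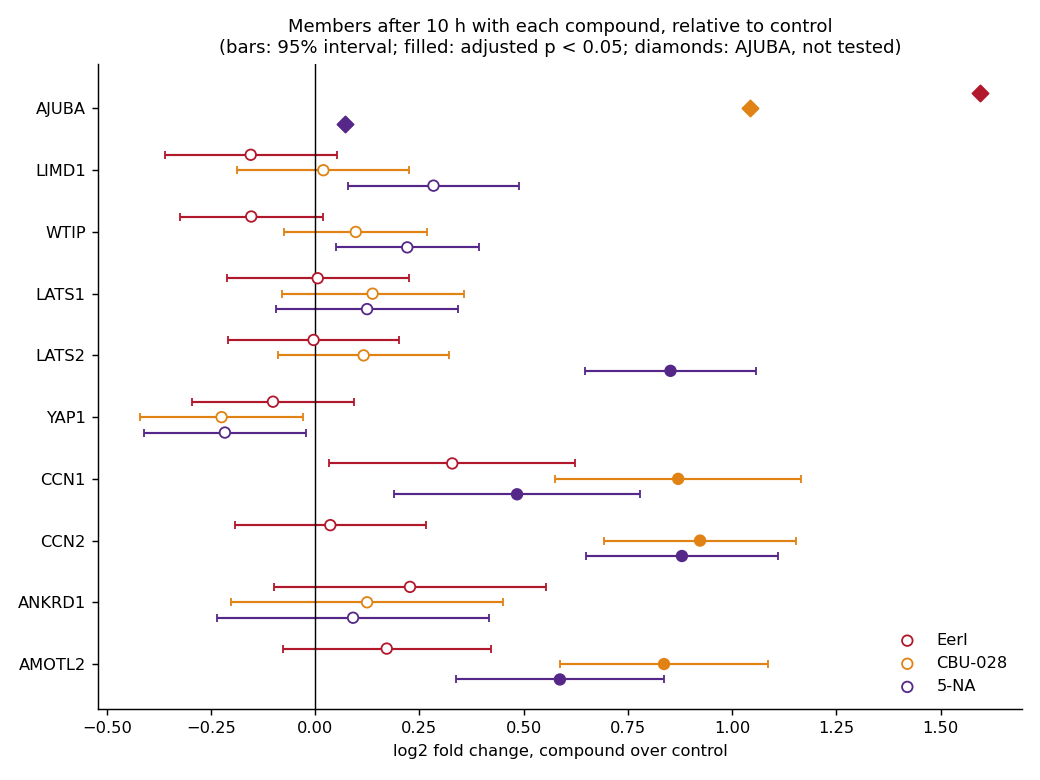
Log2 fold change of the 10 genes for EerI, CBU-028 and 5-NA over control, with 95% intervals from limma (n = 2 arrays per group); filled circles passed an adjusted p under 0.05, and diamonds are AJUBA, which was not tested. CCN1, CCN2 and AMOTL2 lie at 0.87, 0.92 and 0.84 with CBU-028, whereas with EerI they lie at 0.33, 0.04 and 0.17.

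Counted over the 9 genes other than AJUBA, limma called 0 with EerI, 3 with CBU-028 (CCN1, CCN2 and AMOTL2) and 4 with 5-NA (LATS2, CCN1, CCN2 and AMOTL2), all higher than control. Over all 19775 genes the share called with EerI was 0.506% higher and 0.263% lower, with CBU-028 5.49% higher and 7.1% lower, and with 5-NA 7.87% higher and 10.9% lower. Before adjustment, limma gave p under 0.05 for 1 of the 9 with EerI (CCN1), 4 with CBU-028 and 7 with 5-NA, and the analysis of variance after adjustment gave 0 with EerI, 1 with CBU-028 (CCN2) and 3 with 5-NA (WTIP, LATS2 and CCN2). Shares of all genes at these criteria are not given, so these counts do not set the 9 genes apart from the rest. None of the 9 genes was called against control at 2-fold or more, beside 0.172% of all genes with EerI, 0.622% with CBU-028 and 0.698% with 5-NA. The median log2 fold change of the 9 was 0.01 with EerI, 0.12 with CBU-028 and 0.28 with 5-NA, beside 0.00, -0.01 and -0.03 over all genes. The 3 comparisons share the control arrays.

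The compounds were also set against each other at the same dose and time, in 3 pairs. Between CBU-028 and EerI, 2 of the 9 genes were called, both higher with CBU-028, beside 3.73% of all genes in either direction. These were CCN2 (log2 difference 0.89, SE 0.102, limma adjusted p = 0.00733) and AMOTL2 (0.67, SE 0.110, adjusted p = 0.0199). CCN1 had 0.54 (95% interval 0.25 to 0.84, adjusted p = 0.0643). Both calls were lost without EerI replicate 1 or EerI replicate 2 (adjusted p up to 0.0881 for CCN2 and 0.183 for AMOTL2), and the analysis of variance and a fit of the 4 arrays of this pair alone each called 0 of the 9 genes.

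Between 5-NA, the part of EerI that lacks the aromatic domain, and EerI itself, 5 of the 9 genes were called, all higher with 5-NA, beside 17.6% of all genes in either direction. They were LIMD1, WTIP and LATS2, given above, CCN2 with a log2 difference of 0.84 (SE 0.102, limma adjusted p = 0.00125) and AMOTL2 with 0.42 (SE 0.110, adjusted p = 0.0366). The CCN2 call was kept with each array left out, and the AMOTL2 call was kept only without CBU-028 replicate 1 or CBU-028 replicate 2, and was lost in the analysis of variance (adjusted p = 0.153). Without EerI replicate 1, EerI replicate 2 or 5-NA replicate 2 the count was 2 of 9 genes. CCN1 did not differ beyond its spread, with a log2 difference of 0.16 (95% interval -0.14 to 0.45). The -1.52 of AJUBA given above was not tested, and its sign follows from the choice of AJUBA for its higher values with EerI.

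Between 5-NA and CBU-028, LATS2 alone was called of the 9 genes, beside 13.8% of all genes in either direction. For the target genes the log2 differences were -0.04 for CCN2 (95% interval -0.27 to 0.19), -0.25 for AMOTL2 (-0.50 to 0.00), -0.39 for CCN1 (-0.68 to -0.09, limma adjusted p = 0.100) and -0.03 for ANKRD1 (-0.36 to 0.29). These intervals leave room for differences in either direction of CCN2 and ANKRD1. Without 5-NA replicate 1, CCN1 was also called (adjusted p = 0.0332), so that the count was 2.

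The other genes of the pathway were taken from 7 lists of 73 distinct measured genes. With EerI 1 of them was called, GADD45A, a stress-induced gene of the growth arrest family that is also listed as a target of YAP1, which had a log2 fold change of 0.60 (limma adjusted p = 0.0151), and 16 had an unadjusted p under 0.05. With CBU-028 4 rose and 10 fell, and with 5-NA 8 rose and 6 fell. Over all genes 0.506% were higher and 0.263% lower with EerI, 5.49% and 7.1% with CBU-028, and 7.87% and 10.9% with 5-NA. The share of all genes at an unadjusted p under 0.05 is not given. Counts of list genes at that criterion, here and below, thus do not set the lists apart from other genes. Among 16 other YAP1 and TAZ target genes, GADD45A rose in all 3 comparisons, with log2 fold changes of 0.60, 1.60 and 1.58 for EerI, CBU-028 and 5-NA. Of the same list FOXF2 fell with CBU-028 (-0.56) and FJX1 fell with 5-NA (-0.52). The median log2 fold change of these 16 genes was -0.03 with EerI, -0.05 with CBU-028 and -0.06 with 5-NA, and their log2 fold changes ranged from -0.55 to 0.60, from -0.56 to 1.60 and from -0.52 to 1.58.

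Of 20 measured Hippo kinases and upstream regulators, 0 were called with EerI (3 at an unadjusted p under 0.05, 0 by the adjusted analysis of variance), 1 rose and 4 fell with CBU-028, and 2 rose and 1 fell with 5-NA. Over all genes 0.769% were called in either direction with EerI, 12.6% with CBU-028 and 18.8% with 5-NA. RASSF1, a scaffold that binds the kinases upstream of LATS, rose with CBU-028, with log2 signals of 10.07 and 9.88 against 9.22 and 9.13 in control (log2 fold change 0.80, limma adjusted p = 0.00121). FRMD6, a FERM-domain activator of the pathway, fell with CBU-028 by 0.58 on the log2 scale (adjusted p = 0.00471). SAV1, the scaffold of the upstream kinases, rose with 5-NA (0.59, adjusted p = 0.0260), and STRN, a subunit of the phosphatase complex that opposes them, fell by 0.34 with CBU-028 (adjusted p = 0.0336) and by 0.57 with 5-NA (adjusted p = 0.00234). Of 8 YAP1 partners, TAZ, TEAD factors and angiomotins, 0 were called with EerI (2 at an unadjusted p under 0.05, 0 by the adjusted analysis of variance). TEAD2 fell with CBU-028 (-0.39) and 5-NA (-0.51), TEAD4 rose with CBU-028 (0.40), and WWTR1, which encodes TAZ, fell with CBU-028 (-0.34, adjusted p = 0.0392) and had -0.37 with EerI (adjusted p = 0.148).

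Of 11 known binding partners of AJUBA family proteins, 1 rose and 2 fell with CBU-028, and 4 rose and 2 fell with 5-NA, beside 5.49% of all genes higher and 7.1% lower with CBU-028 and 7.87% higher and 10.9% lower with 5-NA. SQSTM1, the autophagy receptor p62, rose with CBU-028 (log2 fold change 0.52, limma adjusted p = 0.00837) and with 5-NA (1.01, adjusted p = 0.000347). SNAI1, a repressor of junction genes for which AJUBA serves as corepressor, rose with 5-NA (0.79, adjusted p = 0.00706), and so did AGO2, the slicer protein of RNA silencing (0.68, adjusted p = 0.00134). AURKA, the mitotic kinase that AJUBA activates, fell by 0.81 with CBU-028 (adjusted p = 0.000589) and by 0.54 with 5-NA (adjusted p = 0.00241). With EerI 0 of the 11 were called, beside 0.769% of all genes in either direction (4 at an unadjusted p under 0.05, 0 by the adjusted analysis of variance). Of the 4 other LIM proteins of the zyxin family, LPP alone rose, with 5-NA (0.39). Of 9 genes regulated by SRF and actin, SRF itself fell with CBU-028 (-0.36) and TPM1 fell with 5-NA (-0.53), and of 6 other CCN and muscle ankyrin repeat genes limma called 0 with each compound (0, 2 and 0 at an unadjusted p under 0.05 with EerI, CBU-028 and 5-NA).

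**Figure D5:**
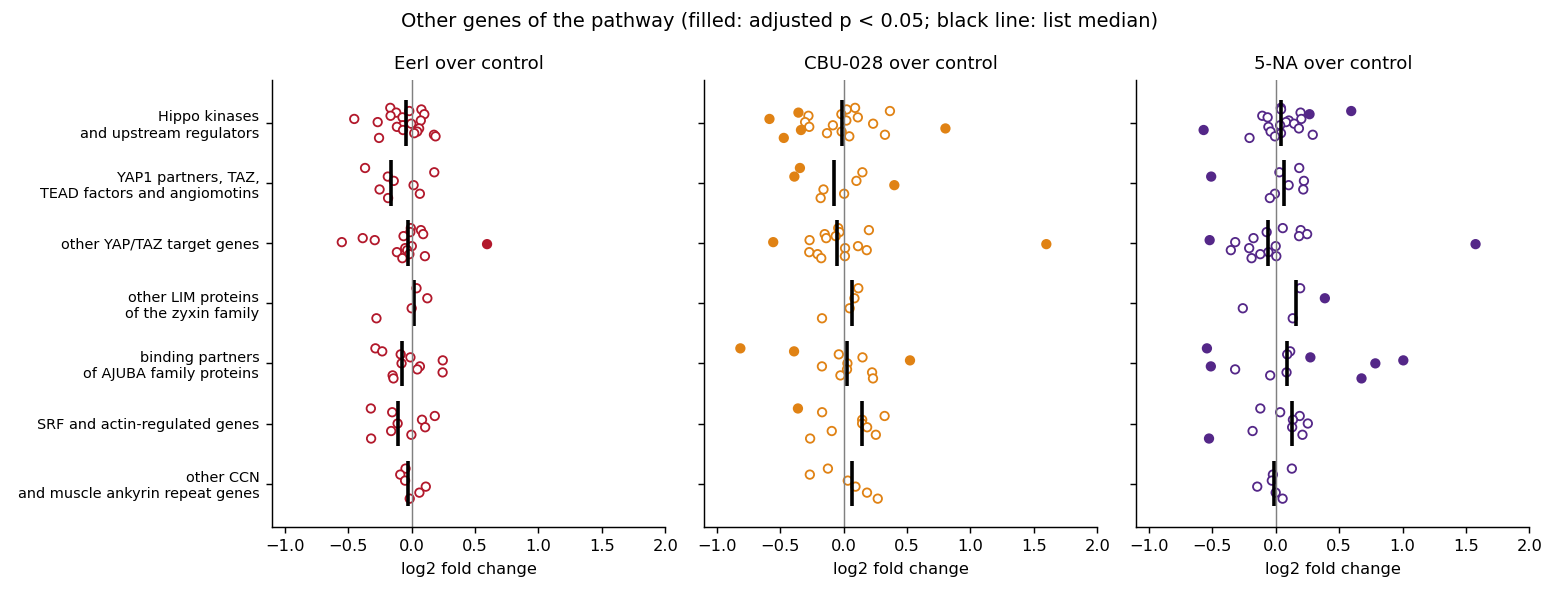
Log2 fold change of each measured gene of the 7 pathway lists for EerI, CBU-028 and 5-NA over control; filled points passed a limma adjusted p under 0.05, and black bars are list medians. GADD45A is the filled point at 0.60, 1.60 and 1.58 among the other YAP/TAZ target genes, whose medians lie at -0.03, -0.05 and -0.06.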

How the data were processed

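The 8 Affymetrix arrays carried RNA of 293T cells given EerI, CBU-028, 5-NA or no compound named in the labels (2 each). The values are the deposited log2 signals, for which the authors ran RMA (background correction, quantile normalization across arrays and 1 summary per probe set). Partek is also named in the labels, and no version is given for it or for RMA. Quantile normalization hides shifts of all genes together. The probe set identifiers are those of HG-U133 Plus 2.0, and the methods name another array of the HG-U133 family. The RNA preparation is described as TRIzol with a cleanup kit in the methods and as an RNeasy kit in the labels.

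Probe sets were named from the annotation of the platform, with older symbols updated: 41097 had 1 symbol, 1801 several and 11777 none, and only the first kind was used for genes. A model with a mean for each of the 4 groups was fitted to all arrays together in limma 3.58.1 (R 4.3.3), with 4 residual and 5.08 prior degrees of freedom. Benjamini-Hochberg adjustment ran over the 54675 probe sets within each of the 6 comparisons, and not across comparisons. A gene was called at an adjusted p under 0.05, with no fold threshold. The median SE of a log2 difference was 0.0990. The methods describe treatment in duplicate and a table title of the study speaks of a biological replicate, without saying how the duplicates were grown. All p-values rest on the spread of these duplicates alone. An exact permutation test of 2 against 2 arrays cannot give a p below 0.333 and was not used. The members and the pathway lists were chosen with earlier results of these data known. Named genes are all 10 members with each probe set, up to 4 genes per list with the largest called change, and the 5 genes most correlated with AJUBA. The procedure was run on simulated data with independent noise and changes in the EerI group alone, which does not test the calls made here. Promoters were read from RefSeq (GRCh38.p14) and figures drawn with matplotlib 3.10.9. The alternatives were the methods' analysis of variance, a 2-fold threshold, other normalizations, floors on dim probe sets, the replicate number as a block, fits limited to the arrays compared, a variance trend, other probe sets and each array left out. The qRT-PCR and immunoblots were not analysed here.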

Additional observations from a re-analysis of the deposited data

How the results depend on the processing

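Counts of called genes, of the 9 other than AJUBA, were 0, 3, 4, 2, 5 and 1 for EerI, CBU-028 and 5-NA against control, CBU-028 against EerI, 5-NA against EerI and 5-NA against CBU-028. A 2-fold threshold, with adjusted p or with the methods' analysis of variance at an unadjusted p, gave 0 in all 6. The adjusted analysis of variance gave 0, 1, 3, 0, 3 and 1. A floor at a mean log2 of 7, which removed ANKRD1 and tested fewer probe sets, gave 0, 3, 6, 4, 5 and 2. The fit of the compared groups alone gave 0, 3, 4, 0, 5 and 1, the variance trend 0, 3, 5, 3, 5 and 2, and any probe set of a gene 0, 5, 5, 3, 6 and 1. With each array left out the counts ranged from 0 to 0, 3 to 3, 2 to 4, 0 to 3, 2 to 5 and 1 to 2. Renewed quantile normalization, median centring and a floor at 5, which also removed ANKRD1, left all 6 counts as they were.

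With the replicate number as a block the counts were 0, 3, 4, 2, 4 and 1, AMOTL2 being lost in 5-NA against EerI (adjusted p = 0.0513), and probe sets called numbered 219, 4840, 7917, 1305, 7201 and 5325, against 288, 5285, 8318, 1613, 7659 and 5799 without it. Deviations of same-numbered arrays correlated between -0.146 and 0.146, so the numbers were not taken as pairs. With the EerI numbers crossed, which was chosen after seeing the data, the block gave 0 for EerI against control and 2 for CBU-028 against EerI.

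Of the log2 fold changes of single genes, 190 kept direction and call, 23 changed sign (2 of these, YAP1 by 213342_at with CBU-028 and 5-NA, also gained a call), 8 lost and 2 gained a call in the same direction, and 5 untested AJUBA values moved by more than the spread of duplicates. Sign changes by probe set were for AJUBA -0.268 (243446_at, CBU-028), -0.008 (225807_at, 5-NA) and -0.0858 (243446_at, 5-NA), for LIMD1 0.0337 and 0.0862 (218850_s_at and 222353_at, EerI) and -0.0847 and -0.0214 (222353_at and 234687_x_at, CBU-028), for LATS1 -0.0501 and -0.00495 (1570231_at and 219813_at, 5-NA), for LATS2 0.0513 and -0.247 (230348_at, EerI and CBU-028), and for YAP1 0.0862, 0.742 and 0.709 (213342_at, EerI, CBU-028 and 5-NA). LATS1 with EerI was -0.0115 after median centring. The cause was not tested. With 1 array left out, ranges that crossed 0 were -0.00361 to 0.146 for AJUBA with 5-NA, -0.0232 to 0.0621 for LIMD1 with CBU-028, and with EerI -0.0600 to 0.0719 for LATS1, -0.0856 to 0.0775 for LATS2, -0.0213 to 0.0935 for CCN2 and -0.0298 to 0.484 for ANKRD1. With 2 arrays a group, the smallest called difference of a member, by the probe set that represents it, was 0.37 on the log2 scale, and none smaller was called.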
